A study of Mus musculus with 22 samples.

Results

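The question was whether the N40K transgene and the amyloid transgenes of 5xFAD mice acted independently on splicing in the mouse cortex, or changed each other's effect. For every gene the interaction was taken as the difference dTg minus 5xFAD less the difference N40K minus WT, on the scale log2(score + 0.002). An interaction of 0 means that N40K multiplied the score by the same factor with and without the amyloid transgenes, which is called additive here because the changes add on the log2 scale. The genes described are those with a mean score of at least 0.02 over the 12 libraries, 9640 of the 15705 genes in the table (61.4%). The mean covers all 4 genotypes equally and uses no difference between them, although a gene can reach the minimum through 1 high group. The 215 genes just under the minimum (mean 0.019 to 0.01992) had a median interaction of 0.00635, and the 164 just above it (0.02 to 0.021) had −4.23e-05.

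The libraries came from the cortex of 6-month-old littermates of N40K-Tg +/- and FAD +/- parents. The 4 genotypes were dTg, which carry both N40K and 5xFAD transgenes, 5xFAD alone, N40K alone, and WT with neither, with 3 libraries each. Poly(A) RNA was sequenced in stranded, paired-end libraries. For the N40K transgene, the sources used here give neither the promoter nor the number of founder lines, and they do not give the sex of the mice; p-values measure only the spread between these samples.

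The U1 snRNP, a complex of a small nuclear RNA and proteins, pairs with the 5′ splice site at the start of splicing and also keeps nascent transcripts from being cut and polyadenylated too early. Snrnp70 encodes its main RNA-binding protein, which is known to collect in insoluble deposits in the brain in Alzheimer disease, and N40K is an N-terminal fragment of that protein. The 5xFAD mouse carries mutant human amyloid precursor protein and presenilin transgenes under the neuronal Thy1 promoter, develops amyloid plaques early, and shows reactive microglia and astrocytes around them.

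The measurement was the deposited Sd score, a ratio per gene and library given to 3 decimals. It was read as a splicing deficiency measure, higher where more of a gene's signal is unspliced, but its formula was not given in the sources used here. The read depth behind each score is unknown. Transcript amounts were not analysed here and cannot be taken from a score. The tissue label was checked only by presence in the table: 17 of 20 cortical cell-type markers were listed (Cx3cr1, Mbp and Cldn5 were not), as were 6 of 10 markers of other tissues, among them Prox1, Adora2a and Folr1. As a score is no expression level, this says nothing of abundance.

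The libraries were close to each other, with Pearson's r of 0.961 to 0.981 between log2 scores over the 66 pairs, and 2 of them had higher scores than the rest. The median score over the 9640 genes was 0.067, 0.078 and 0.074 in the dTg libraries, 0.07, 0.068 and 0.066 in the 5xFAD libraries, 0.079, 0.07 and 0.072 in the N40K libraries, and 0.067, 0.066 and 0.07 in the WT libraries. N40K replicate 1 and dTg replicate 2 were the highest. Of the other carriers of N40K, dTg replicate 3 and N40K replicate 3 lay above every mouse without it, and dTg replicate 1 and N40K replicate 2 overlapped them. The interaction of these medians was −0.02 on the log2 scale (two-sided exact permutation p = 0.85 over 400 regroupings of N40K status within each 5xFAD stratum, whose null is no N40K effect in either stratum). Its sign depended on single libraries: it was 0.0383 without dTg replicate 1 and 0.0295 without N40K replicate 1. Total counts of called genes, of interactions and of genes with 1 group apart, and correlations between backgrounds, are given below with and without both. Median effects, classes of change, list results and intron-length results were computed with all 12 libraries only, so their dependence on these 2 was not tested.

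No gene showed an interaction that passed the threshold. With limma across all 15705 genes and Benjamini-Hochberg adjustment, 0 of the 9640 genes had an adjusted p under 0.05 (0%), and the smallest adjusted p was 1. At an unadjusted p under 0.05 there were 320 (3.32%, against 2.87% of the whole table), of which 163 had a positive interaction (1.69%) and 157 a negative one (1.63%), where uniform p-values would give 482 (5%). At an unadjusted p under 0.01 there were 45 (0.467%). The smallest unadjusted p was 0.000949. The cut for a call at the first rank among all 15705 genes was 3.18e-06, and it is larger at later ranks. With libraries centred on their own medians, the split at an unadjusted p under 0.05 was 258 positive and 127 negative. Without N40K replicate 1 it was 304 and 133, without dTg replicate 2 it was 138 and 311, and without both it was 240 and 251 (491 in all).

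**Figure D1:**
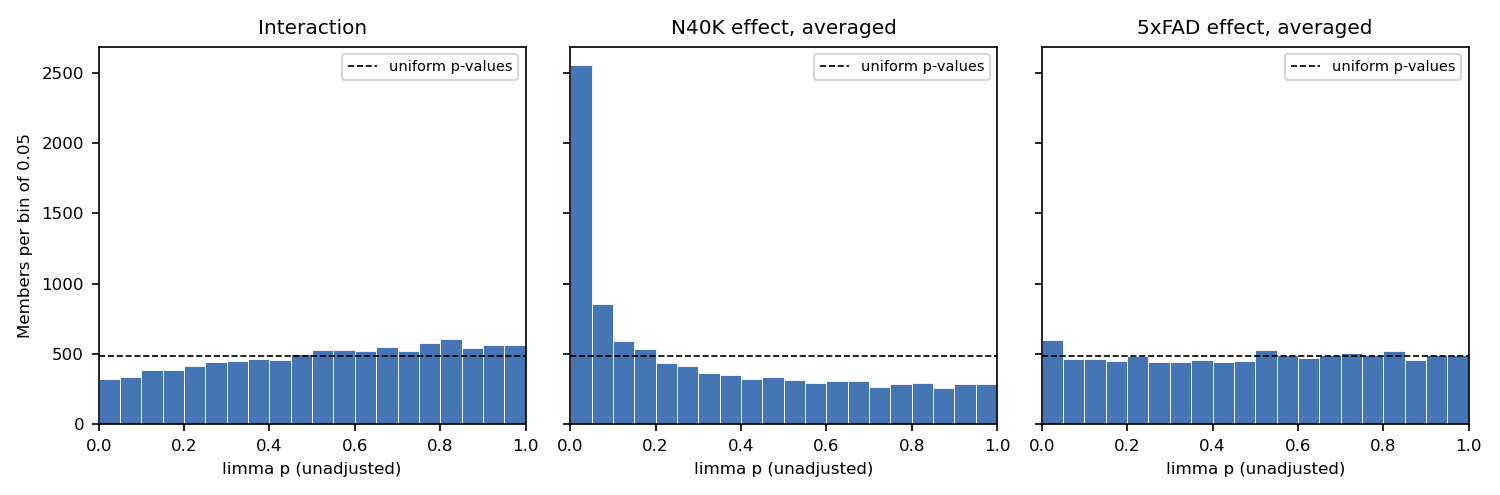
Histograms of unadjusted limma p-values of the 9640 genes in bins of 0.05, for the interaction and for the averaged effects of N40K and of 5xFAD; the dashed line marks 482 genes per bin, as for uniform p-values. The lowest bin holds 320 genes for the interaction, below the line, against 2558 for the averaged N40K effect and 598 for the averaged 5xFAD effect.

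The size of what could have been seen bounds this result. The fitted interactions had a median of −0.00256 and a standard deviation of 0.29 over the 9640 genes, and 5% of them lay below −0.447 and 5% above 0.395. The median standard error was 0.192, so a typical 95% interval reached 0.434 to either side. For 4061 genes (42.1%) that interval lay wholly between −0.5 and 0.5, a margin of 1.41-fold, and for these a larger interaction is outside the interval. For the remaining genes the interval reached past the margin or lay beyond it. Fitted interactions of 1 or more in either direction were seen in 134 genes (1.39%), and 50 of these had an unadjusted p under 0.05. The share at an unadjusted p under 0.05 was 2.93% of 3554 genes with mean scores of 0.02 to 0.05, 3.31% of 2295 at 0.05 to 0.1, 3.61% of 2937 at 0.1 to 0.5 and 3.98% of 854 at 0.5 or more.

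Among all 15705 genes there were 3 that passed (0.0191%), all of them below the minimum score and named here after their values were seen. Synpr, which encodes the vesicle protein synaptoporin, stood at 0.001 in all 3 dTg libraries and was listed at 0 in all 9 others. Atp2b2, a plasma membrane calcium pump, and Kcnab1, a potassium channel subunit, stood at 0.002 in every dTg, 5xFAD and N40K library and at 0.001 in every WT library. Each of these differences is 1 step of the last decimal kept in the table, with no spread within a group.

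Genes called for N40K had like median effects on both backgrounds. Averaged over 5xFAD status it passed in 986 of the 9640 genes (10.2%, against 11.7% of the whole table), with 874 higher (9.07%) and 112 lower (1.16%) in carriers. In 985 of the 986 the change had the same direction with and without amyloid transgenes, which a call on the average of both favours. Among those that rose, the median effect was 0.411 between dTg and 5xFAD mice and 0.425 between N40K and WT mice; among those that fell, the medians were −0.324 and −0.311. The effect was smaller in the presence of amyloid transgenes in 528 genes and larger in 458. At an unadjusted p under 0.05 for the interaction there were 26 positive and 21 negative genes among the 986 (4.77%), against 3.32% of all 9640. They made up 10.7% of the 112 genes that fell (6 positive, 6 negative) and 4% of the 874 that rose (20 and 15); this difference was not tested. The averaged effect and the interaction are separate contrasts of the same fit, and neither fixes the other. They share each gene's estimate of spread, so a call on the average favours genes of small spread. The median standard error of the interaction was 0.134 among the falls, 0.178 among the rises and 0.192 over all 9640 genes.

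For 454 of the 986 genes (46%) the 95% interval, not adjusted over genes, lay wholly between −0.5 and 0.5. This share is close to the 42.1% of all 9640 genes. The 454 are called additive below in this sense only. In size, the margin exceeds the median effects among rises (0.411 and 0.425) and among falls (−0.324 and −0.311). N40K effects of such genes may thus still differ in size between the backgrounds. Both counts depend on single libraries: the 986 became 441 and 526 when WT replicates 2 and 1 were left out in turn, 450 and 628 for 5xFAD replicates 3 and 1, 486 for dTg replicate 2 and 555 for N40K replicate 1. With both libraries of highest median left out it was 384. The 454 ranged from 181 (without WT replicate 2) to 544 (without dTg replicate 1), and was 231 without both.

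Across the 9640 genes, the effect dTg minus 5xFAD correlated with N40K minus WT at Pearson's r of 0.489 and Spearman's rho of 0.504. These contrasts share no library, but they share the genes, whose scores differ in level and precision, and both contain a library of high median. Without N40K replicate 1 and dTg replicate 2, r was 0.302. For the 5xFAD effect, r was 0.146 and rho 0.126 between dTg minus N40K and 5xFAD minus WT. By level, r for the N40K effect was 0.49 at mean scores of 0.02 to 0.05, 0.529 at 0.05 to 0.1, 0.479 at 0.1 to 0.5 and 0.393 at 0.5 or more.

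**Figure D2:**
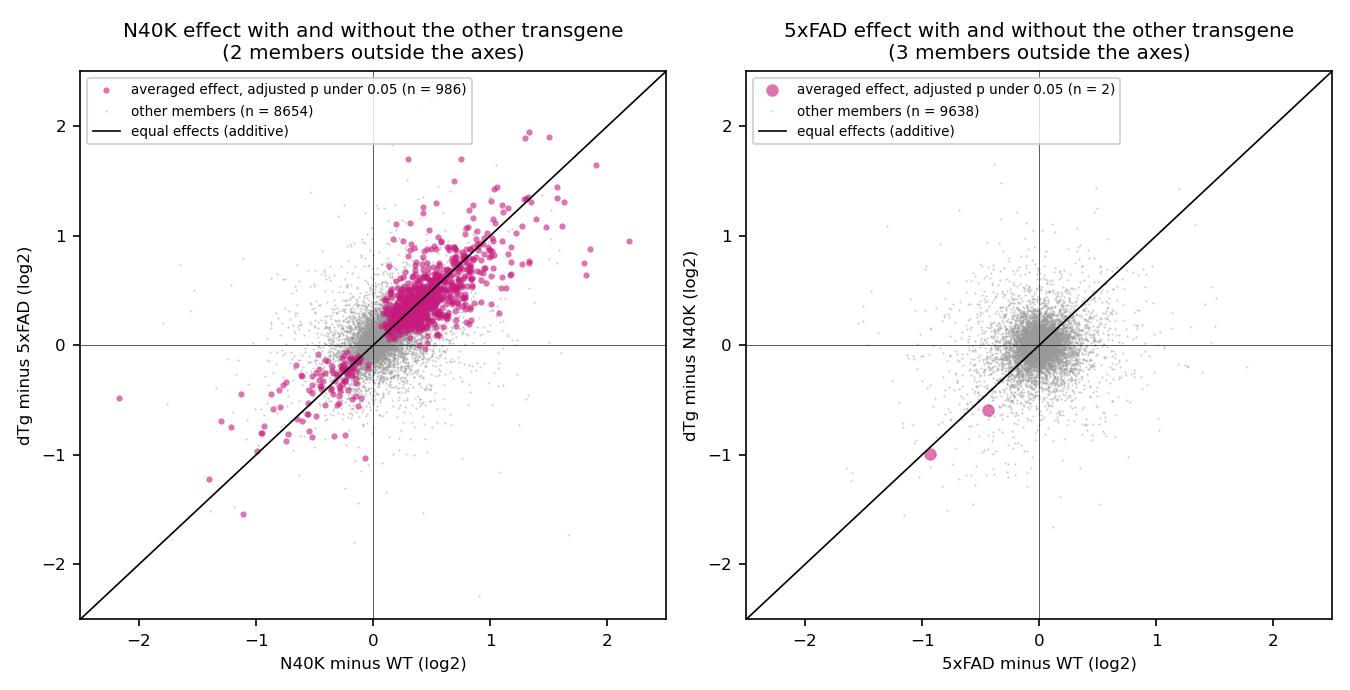
Each point is 1 of the 9640 genes, with the effect of a transgene in mice that carry the other one on the vertical axis and in mice without it on the horizontal axis (log2 differences); the left panel shows N40K, the right panel 5xFAD, and the diagonal marks equal effects. The 986 genes called for the averaged N40K effect lie along the diagonal, mostly in the upper right, while in the right panel only 2 called genes stand apart, both at the lower left.

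Among the additive genes, 3 rises and 3 falls of the N40K effect were followed in each library. Ndst3, an enzyme that sulfates heparan sulfate chains, had scores of 0.04, 0.053 and 0.037 in dTg and 0.028, 0.024 and 0.025 in 5xFAD mice. It had 0.043, 0.037 and 0.035 in N40K and 0.022, 0.022 and 0.025 in WT mice. Every carrier of N40K lay above every other mouse, and the difference was 1.62-fold with amyloid transgenes and 1.61-fold without (interaction 0.01, standard error 0.183). Evc, a ciliary protein of Hedgehog signalling, had 0.102, 0.102 and 0.103 in dTg and 0.065, 0.071 and 0.072 in 5xFAD mice. Its scores were 0.136, 0.113 and 0.105 in N40K and 0.073, 0.071 and 0.075 in WT mice. Carriers and the other mice did not overlap, and the folds were 1.46 and 1.59 (interaction −0.12, standard error 0.119). Spdya, an activator of cyclin-dependent kinases with a role in meiosis, rose 1.54-fold and 1.53-fold on the 2 backgrounds, with carriers at 0.138 to 0.193 and the others at 0.091 to 0.121.

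Among the falls, Fnbp4, a formin-binding protein, had 0.026, 0.024 and 0.026 in dTg and 0.033, 0.034 and 0.036 in 5xFAD mice. It had 0.021, 0.023 and 0.023 in N40K and 0.035, 0.033 and 0.033 in WT mice. All 6 carriers lay below all 6 others, with folds of 0.752 with amyloid transgenes and 0.682 without (interaction 0.14, 95% interval −0.03 to 0.31). Ttn, the gene of the muscle protein titin, fell to 0.691-fold and 0.682-fold (interaction 0.02), and the zinc-finger gene Zfp623 to 0.737-fold and 0.696-fold (interaction 0.08). The averaged N40K effect of these 6 genes had limma adjusted p between 0.000477 (Fnbp4) and 0.0108 (Spdya), and each passed under all 25 alternative settings, single-library omissions included. Their choice by the size of this effect in these same data favours that.

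Ccdc24 and Peg3, chosen after their values were seen, had larger N40K effects, and their interaction intervals reached past the margin. The coiled-coil gene Ccdc24 had 0.065, 0.121 and 0.085 in dTg, 0.028, 0.023 and 0.029 in 5xFAD, 0.135, 0.089 and 0.12 in N40K and 0.045, 0.022 and 0.024 in WT mice. Carriers and the others did not overlap, but the interaction of −0.25 had a 95% interval of −1.19 to 0.69. Peg3, an imprinted zinc-finger gene, had 0.082, 0.059 and 0.083 in dTg, 0.135, 0.13 and 0.125 in 5xFAD, 0.061, 0.073 and 0.069 in N40K and 0.123, 0.133 and 0.142 in WT mice. The carriers were below all others on both backgrounds, and the interaction was 0.15 (−0.25 to 0.55).

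The 5xFAD effect, averaged over N40K status, passed in 2 of the 9640 genes (0.0207%, against 0.0446% of the whole table), both lower with amyloid transgenes. At an unadjusted p under 0.05 there were 599 (6.21%, against 6.17% of the whole table). On the separate backgrounds limma called 0 of the 9640 genes and 3 of the whole table in each contrast (2 higher, 1 lower). At an unadjusted p under 0.05, 250 were higher (2.59%, against 2.87% of the whole table) and 268 lower (2.78%, against 2.27%) for dTg minus N40K. For 5xFAD minus WT, 215 were higher (2.23%, against 2.47%) and 212 lower (2.2%, against 1.92%). Usp18, which removes the interferon-induced modifier ISG15 from proteins, had 0.024, 0.023 and 0.023 in dTg, 0.029, 0.021 and 0.023 in 5xFAD, 0.049, 0.051 and 0.045 in N40K, and 0.056, 0.037 and 0.053 in WT mice; it was chosen after its values were seen. All 6 mice with amyloid transgenes lay below all 6 without, at 0.504-fold in carriers of N40K and 0.523-fold in mice without it (interaction −0.05, 95% interval −0.54 to 0.43). Cd68, a lysosomal glycoprotein of microglia, had 0.179, 0.176 and 0.172 in dTg, 0.212, 0.174 and 0.203 in 5xFAD, 0.259, 0.277 and 0.259 in N40K, and 0.261, 0.293 and 0.245 in WT mice. Here too the mice with and without amyloid transgenes did not overlap, and the folds were 0.666 with N40K and 0.739 without (interaction −0.15, −0.42 to 0.12). The averaged effect of Cd68 (limma adjusted p = 0.0265) missed the threshold under 13 of 25 alternative settings, with adjusted p of up to 0.17. These were omissions of WT replicate 1, N40K replicates 2 and 3, 5xFAD replicate 3 and each dTg replicate, and 6 other settings. In bulk cortex a change within cells of a type and a change in their number or RNA content cannot be told apart. Usp18 and Cd68 were both lost where 0 genes passed: with a pseudocount of 0.02, on linear scores, with the replicate block, and without WT replicate 1, N40K replicate 3, 5xFAD replicate 3, dTg replicate 1 or dTg replicate 3. The count of 2 became 11 without 5xFAD replicate 1, 5 without 5xFAD replicate 2, 4 without WT replicate 3 or N40K replicate 1, 1 without N40K replicate 2, and 5 with N40K replicate 1 and dTg replicate 2 both left out. None of the 9640 genes was called for both averaged effects.

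Synergy, in the sense of a dTg change beyond both single-transgene changes, was looked for by comparing the 3 groups with WT. A gene was counted where at least 1 of the 3 changes was 0.25 or more in size. Of the 986 genes called for N40K, 807 (81.8%) had a dTg change between 0.5 and 2 times the larger single change. In 31 (3.14%) the dTg change was at least 2 times the larger single one, in 44 (4.46%) it was at most 0.5 times, in 15 (1.52%) it was opposite, and 89 stayed within 0.25. Among the 320 genes at an unadjusted interaction p under 0.05, 25 (7.81%) were in the first of these classes, 119 (37.2%) in the class of at most 0.5 times, 26 (8.12%) were opposite, 52 were between, and 98 stayed within 0.25. Over all 9640 genes the same classes held 4.5%, 9.89%, 1.98%, 28.4% and 55.2%. The 3 changes share the WT libraries and the 320 were chosen on the interaction itself, so these counts describe and test nothing.

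**Figure D3:**
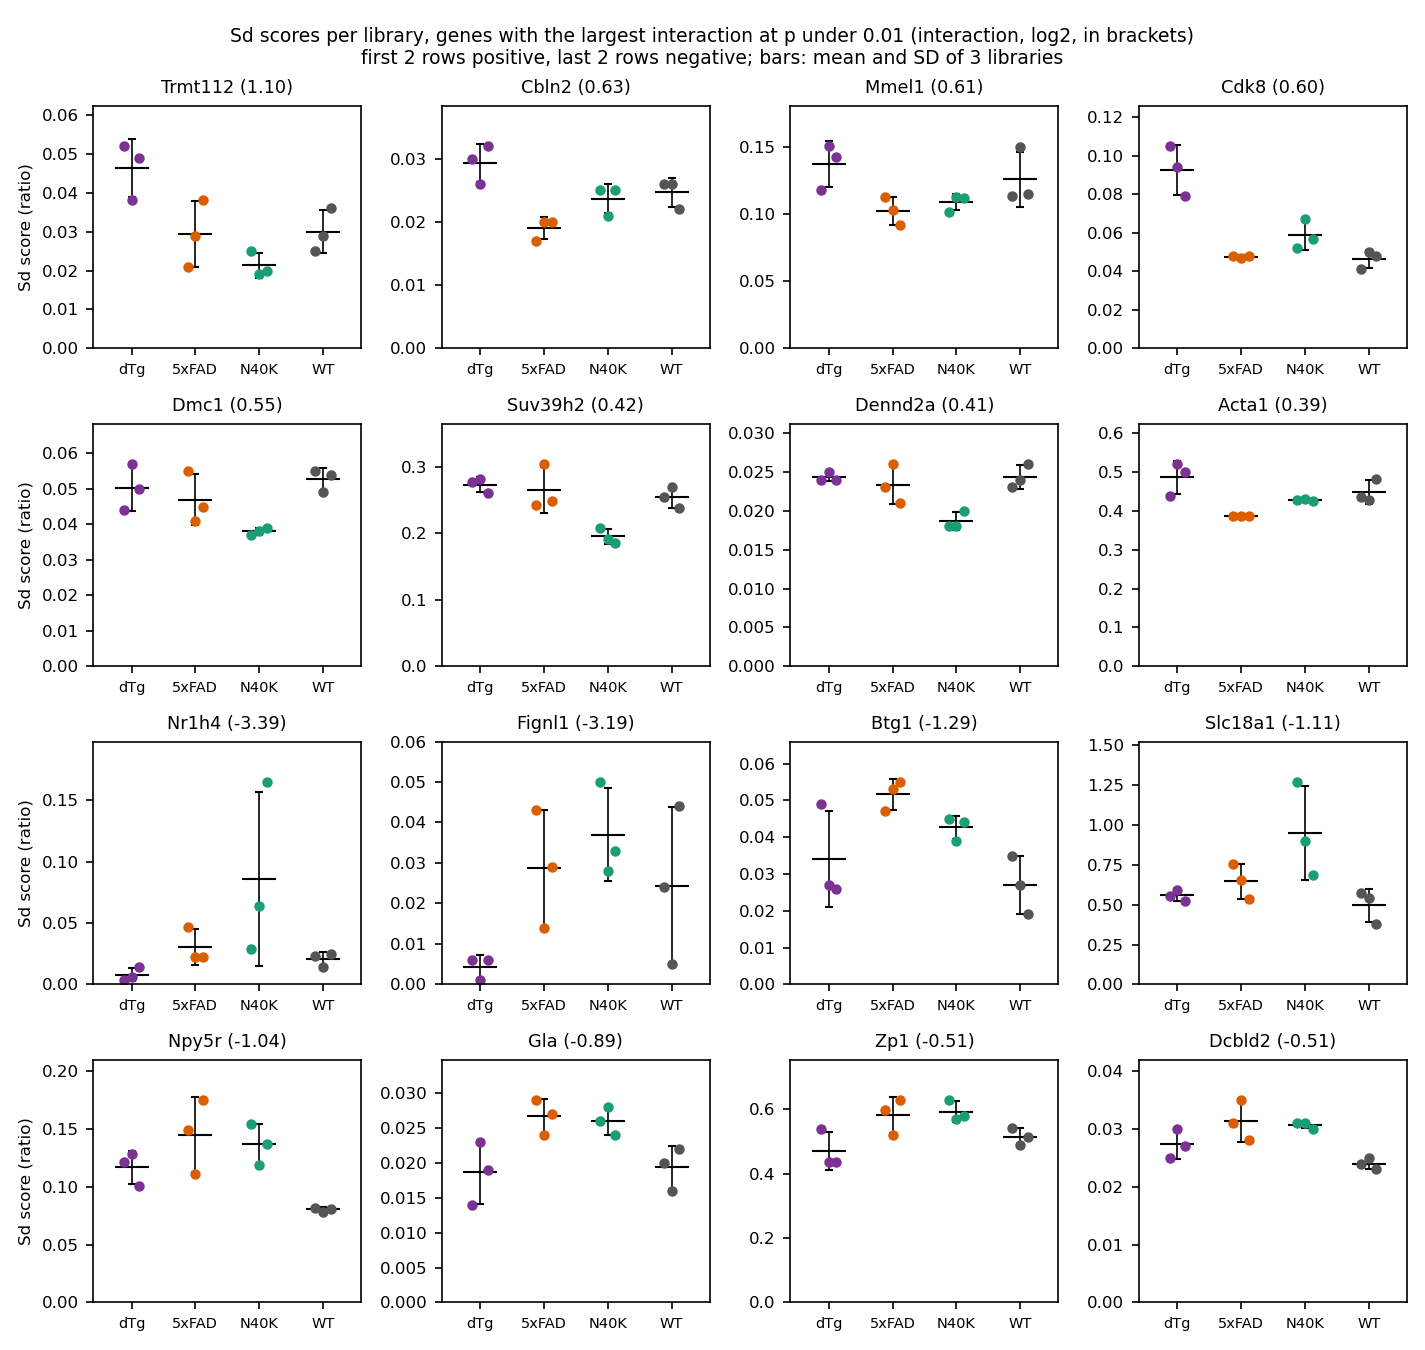
Sd scores of the 16 genes named for their interaction, 8 positive in the upper rows and 8 negative in the lower rows, with a point per library, groups in the order dTg, 5xFAD, N40K and WT, and bars for the mean and SD of 3 libraries. In Cdk8 the dTg libraries lie above the rest, in Suv39h2 the N40K libraries lie below the rest, and in Gla the 5xFAD and N40K libraries lie above the dTg and WT libraries.

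The genes with the largest positive interactions at an unadjusted p under 0.01 fell into 4 patterns, and none passed adjustment (adjusted p = 1 for each). In Cdk8 and Trmt112 the dTg mice were high. Cdk8, a kinase of the Mediator complex, had 0.105, 0.094 and 0.079 in dTg, 0.048, 0.047 and 0.048 in 5xFAD, 0.052, 0.067 and 0.057 in N40K, and 0.041, 0.05 and 0.048 in WT mice. Every dTg library lay above all 9 others, and the N40K fold was 1.89 with amyloid transgenes and 1.25 without (interaction 0.60, standard error 0.17, limma unadjusted p = 0.00644). Cdk8 was also among the 986 genes called for the averaged N40K effect (limma adjusted p = 0.00713). Trmt112, a partner protein that several methyltransferases need, had 0.052, 0.038 and 0.049 in dTg, 0.021, 0.029 and 0.038 in 5xFAD, 0.025, 0.019 and 0.02 in N40K, and 0.025, 0.029 and 0.036 in WT mice. Its N40K fold was 1.57 with amyloid transgenes and 0.732 without (interaction 1.10, limma unadjusted p = 0.00528), and the lowest dTg library equalled the highest 5xFAD library.

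In Dmc1, Suv39h2 and Dennd2a the N40K mice were low and the dTg mice were not. Suv39h2, a histone methyltransferase of heterochromatin, had 0.277, 0.281 and 0.26 in dTg, 0.242, 0.304 and 0.249 in 5xFAD, 0.208, 0.192 and 0.186 in N40K, and 0.254, 0.27 and 0.238 in WT mice. The 3 N40K libraries lay below all others, at 0.771-fold of WT, against 1.03-fold for dTg over 5xFAD (interaction 0.42, limma unadjusted p = 0.00855). Dmc1, a recombinase of meiosis, had 0.037 to 0.039 in N40K mice and 0.041 to 0.057 in the other 9, and Dennd2a, a regulator of Rab proteins, had 0.018 to 0.02 and 0.021 to 0.026.

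In Cbln2 and Acta1 the 5xFAD mice were low and the dTg mice were not. Cbln2, a secreted organiser of synapses, had 0.03, 0.026 and 0.032 in dTg, 0.017, 0.02 and 0.02 in 5xFAD, 0.025, 0.021 and 0.025 in N40K, and 0.026, 0.026 and 0.022 in WT mice. The 5xFAD libraries were the 3 lowest, and the 5xFAD effect was 1.22-fold with N40K and 0.788-fold without (interaction 0.63, limma unadjusted p = 0.00196). Acta1, the skeletal muscle actin, had 0.439 to 0.52 in dTg, 0.386 to 0.387 in 5xFAD, 0.424 to 0.429 in N40K and 0.428 to 0.482 in WT mice. In Mmel1 both single-transgene groups were low. Mmel1, a neprilysin-like peptidase, had 0.118 to 0.151 in dTg, 0.092 to 0.113 in 5xFAD, 0.102 to 0.113 in N40K and 0.114 to 0.15 in WT mice, so that both single-transgene groups lay below the dTg and WT groups.

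In all 8 genes named for a negative interaction, the mean score was higher with either transgene alone than with both. Gla, the lysosomal alpha-galactosidase, had 0.014, 0.023 and 0.019 in dTg, 0.029, 0.024 and 0.027 in 5xFAD, 0.026, 0.028 and 0.024 in N40K, and 0.02, 0.016 and 0.022 in WT mice. Both single-transgene groups lay above the dTg and WT groups without overlap, with an N40K fold of 0.711 with amyloid transgenes and 1.32 without (interaction −0.89, limma unadjusted p = 0.00362, adjusted p = 1). Btg1, an antiproliferative factor, had 0.049, 0.027 and 0.026 in dTg, 0.047, 0.053 and 0.055 in 5xFAD, 0.045, 0.039 and 0.044 in N40K, and 0.035, 0.027 and 0.019 in WT mice (interaction −1.29). Here 1 dTg library lay among the single-transgene mice and the other 2 lay within the WT range. Zp1, an egg-coat protein, had 0.435 to 0.538 in dTg, 0.521 to 0.628 in 5xFAD, 0.569 to 0.629 in N40K and 0.488 to 0.542 in WT mice (interaction −0.51).

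In Npy5r and Dcbld2, as in Btg1 above and Slc18a1 below, the mean dTg score lay between those of the single-transgene groups and of WT. Npy5r, a receptor for neuropeptide Y, had 0.121, 0.128 and 0.101 in dTg, 0.149, 0.111 and 0.175 in 5xFAD, 0.154, 0.119 and 0.137 in N40K, and 0.082, 0.078 and 0.081 in WT mice. All 9 transgenic libraries lay above the 3 WT libraries and the transgenic groups overlapped (interaction −1.04, standard error 0.228, limma unadjusted p = 0.00131). Dcbld2, a transmembrane receptor protein, had 0.025 to 0.03 in dTg, 0.028 to 0.035 in 5xFAD, 0.03 to 0.031 in N40K and 0.023 to 0.025 in WT mice (interaction −0.51, limma unadjusted p = 0.00169); the dTg and WT ranges met at 0.025.

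The most negative values rested on low or variable scores. Nr1h4, the bile acid receptor, had 0.004, 0.006 and 0.014 in dTg, 0.047, 0.022 and 0.022 in 5xFAD, 0.029, 0.064 and 0.165 in N40K, and 0.023, 0.014 and 0.025 in WT mice (interaction −3.39, standard error 0.857). It reached the minimum mean score through its N40K libraries. The dTg libraries were the lowest, with the highest of them equal to the lowest WT library, and the 3 N40K libraries spread widely. Fignl1, an ATPase of recombination repair, had 0.001 to 0.006 in dTg, 0.014 to 0.043 in 5xFAD, 0.028 to 0.05 in N40K and 0.005 to 0.044 in WT mice (interaction −3.19, standard error 0.985). Fignl1 too reached the minimum mean score through its N40K libraries. Slc18a1, a vesicular monoamine transporter, had 0.522 to 0.594 in dTg, 0.534 to 0.753 in 5xFAD, 0.684 to 1.268 in N40K and 0.378 to 0.572 in WT mice (interaction −1.11). In each of the 16 genes the sign of the interaction was the same under all 25 alternative settings. Their choice by size and p of the interaction in these same data favours this, so it is no separate support.

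A stricter description asked for 1 group apart from the other 3. It required a gap of at least 0.5 on the log2 scale, a range of the other 3 group means of at most 0.5 times the gap, and 3 libraries that did not overlap the other 9. Of the 9640 genes 29 met it (0.301%, against 0.229% of the whole table), and no genotype stood out: dTg was apart in 9 (5 high, 4 low), 5xFAD in 4 (2 high, 2 low), N40K in 7 (6 high, 1 low) and WT in 9 (5 high, 4 low). Leaving out a library, which removes 1 of the values that must not overlap, gave 41 to 68 such genes, and leaving out both libraries of highest median gave 87.

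Among genes high in dTg mice alone, predicted genes aside, the largest gap was in Sspn. This gene, which encodes sarcospan of the dystrophin complex, had 0.07, 0.065 and 0.049 in dTg, 0.031, 0.029 and 0.03 in 5xFAD, 0.026, 0.041 and 0.032 in N40K, and 0.025, 0.035 and 0.027 in WT mice. Neither transgene alone took a library to the dTg range, and the N40K fold was 1.96 with amyloid transgenes and 1.12 without (interaction 0.80, limma unadjusted p = 0.012, adjusted p = 1). Sspn was also called for the averaged N40K effect (limma adjusted p = 0.0256). Slpi, a secreted protease inhibitor, was low in dTg mice, with 0.04, 0.033 and 0.038, against 0.066 to 0.118 in 5xFAD, 0.05 to 0.146 in N40K and 0.073 to 0.165 in WT mice.

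Sox9, a transcription factor of astrocytes and neural progenitors, was high in 5xFAD mice alone. It had 0.027, 0.021 and 0.018 in dTg, 0.05, 0.042 and 0.048 in 5xFAD, 0.016, 0.026 and 0.03 in N40K, and 0.023, 0.028 and 0.023 in WT mice. The 5xFAD libraries lay above the other 9, so that the amyloid effect was 0.939-fold with N40K and 1.83-fold without (interaction −0.96, standard error 0.298, limma unadjusted p = 0.0101, adjusted p = 1). Olig2, a transcription factor of the oligodendrocyte lineage, was also highest in 5xFAD mice, with 0.12, 0.125 and 0.128 in dTg, 0.184, 0.163 and 0.177 in 5xFAD, 0.107, 0.144 and 0.114 in N40K, and 0.119, 0.127 and 0.146 in WT mice. Here too the 5xFAD libraries were the 3 highest of the 12, with an amyloid effect of 1.03-fold with N40K and 1.33-fold without (interaction −0.37, limma unadjusted p = 0.0419, adjusted p = 1). Olig2 had the smallest interaction p of 6 oligodendrocyte genes, whose median interaction was −0.0276. Sox10 (0.26) and Cspg4 (0.14) had positive interactions, and those of Mog, Cnp and Gpr17 were −0.0157, −0.0395 and −0.0546. Sox9 and Olig2 were also called for the averaged N40K effect, both lower in carriers (limma adjusted p = 0.0438 and 0.0435).

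The other genes named for a lone group varied more. Xlr4b, which has near-identical copies and is therefore uncertain, was low in 5xFAD mice (0.055 to 0.092, against 0.106 to 0.267 in the other 9). Cda, cytidine deaminase, was high in N40K mice (0.03 to 0.062, against 0.02 to 0.028), and Nsl1, a kinetochore protein, was low in them (0.013 to 0.022, against 0.026 to 0.057). Fblim1, a filamin-binding protein, was high in WT mice (0.095 to 0.149, against 0.041 to 0.088 in the 9 transgenic mice), and Dhh, the ligand desert hedgehog, was low in them (0.375 to 0.522, against 0.545 to 1.143).

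**Figure D4:**
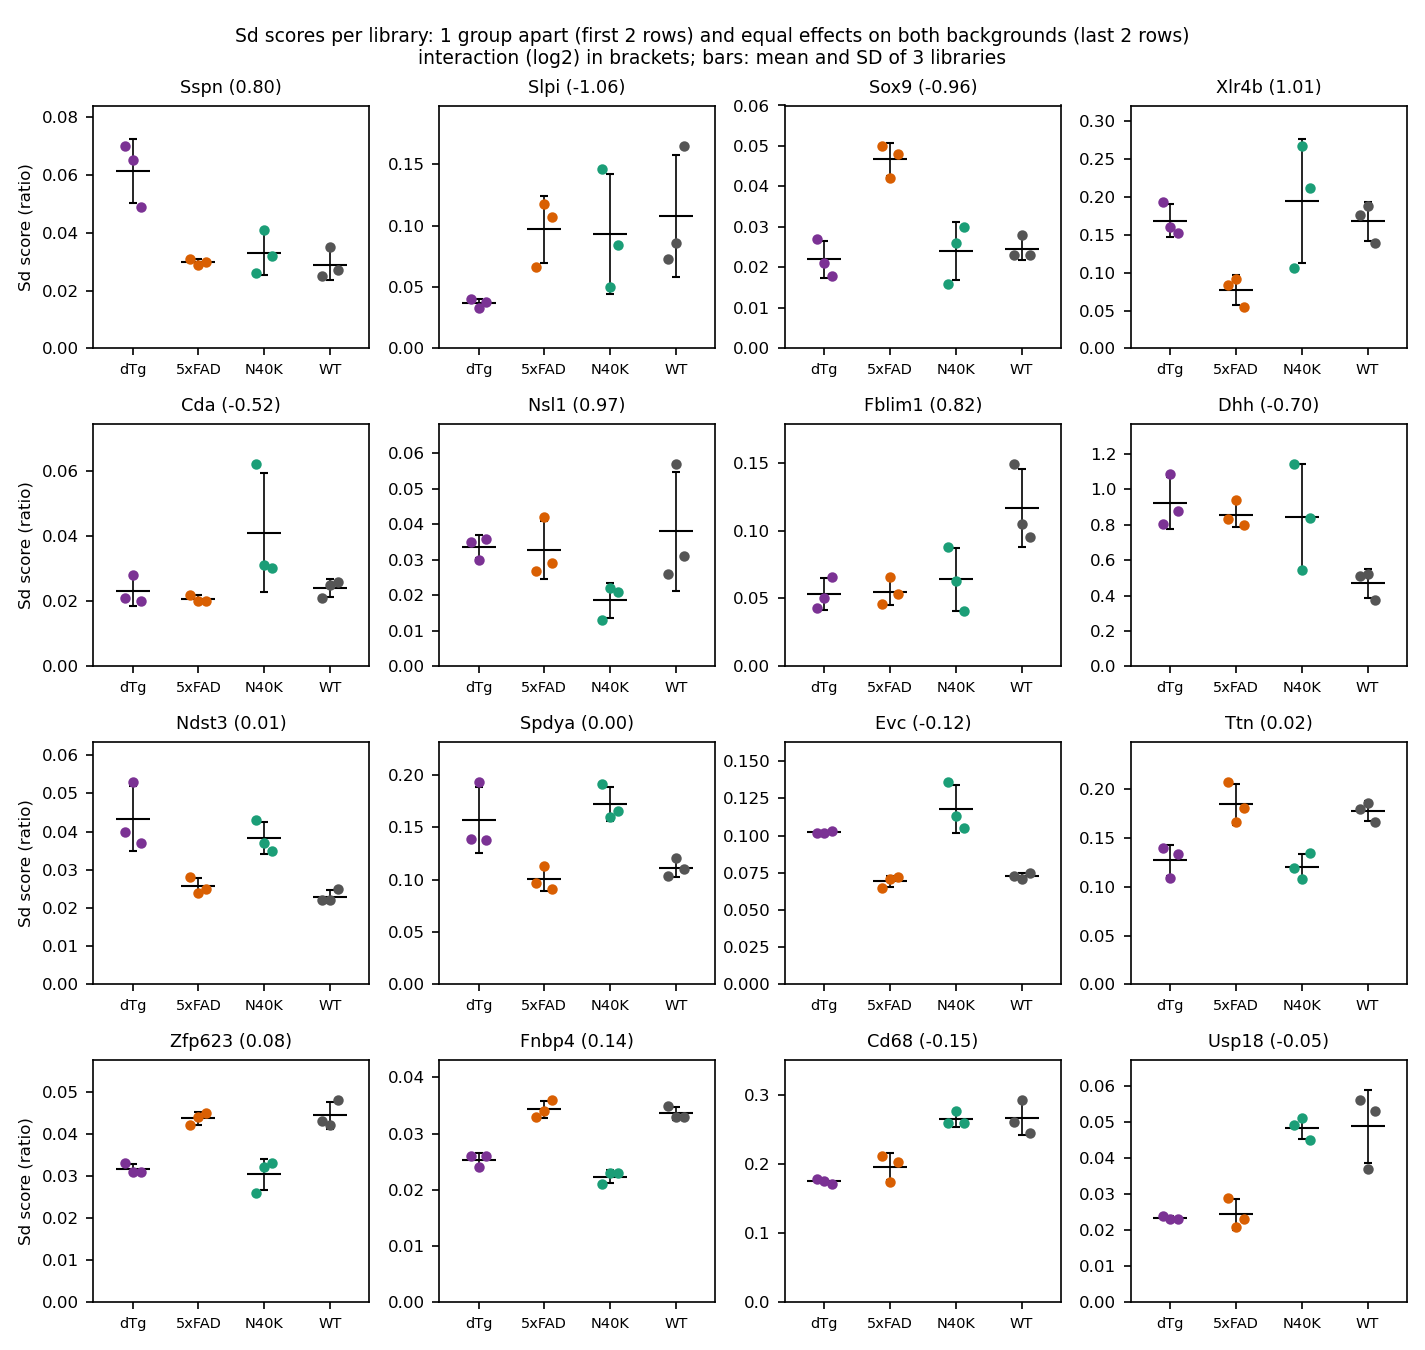
Sd scores per library of 8 genes in which 1 group stood apart (upper rows) and 8 genes with like effects on both backgrounds (lower rows), with groups in the order dTg, 5xFAD, N40K and WT, and bars for the mean and SD of 3 libraries. Sspn is high only in the dTg libraries and Sox9 only in the 5xFAD libraries, while Ndst3 and Spdya are high in both groups with N40K, and Cd68 and Usp18 are low in both groups with amyloid transgenes.

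Genes of the splicing machinery showed no interaction past the threshold. Snrnp70, the mouse gene of the protein from which N40K derives, had 0.042, 0.039 and 0.045 in dTg, 0.045, 0.044 and 0.044 in 5xFAD, 0.042, 0.041 and 0.04 in N40K, and 0.044, 0.046 and 0.045 in WT mice. It was lower in N40K than in WT libraries without overlap, while the dTg and 5xFAD libraries overlapped (interaction 0.05, 95% interval −0.11 to 0.21). Among 12 U1 snRNP and U1-associated genes 0 had an unadjusted interaction p under 0.05 (limma), and the list medians of the N40K effect were 0.089 with amyloid transgenes and 0.0526 without, beside 0.0795 and 0.0788 over all 9640 genes. Luc7l2, a U1-associated alternative splicing factor, was the member called for the averaged N40K effect, at 1.41-fold and 1.39-fold (interaction 0.03); it was chosen after its values were seen.

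The other splicing lists were similar. None of 12 SF3 and U2 branch-site genes, 7 minor spliceosome genes, 16 SR proteins with their CLK kinases and Tra2 genes, 12 hnRNPs or 6 neuronal splicing regulators had an unadjusted interaction p under 0.05 (limma; 0 adjusted). Their median interactions were −0.0192, −0.0193, −0.00767, 0.0141 and −0.00267. For the averaged N40K effect, 3 of the 7 minor spliceosome genes were called (2 higher, 1 lower). Of the 16 SR and kinase genes 3 were called, where 10.2% of all genes were. The called genes of both lists all had an interaction interval within 0.5, as had 46% of the 986 called genes. Of these splicing lists, the minor spliceosome had the highest medians for N40K, with medians of 0.174 with amyloid transgenes and 0.246 without. Hnrnpu, a nuclear matrix RNA-binding protein, had 0.134, 0.143 and 0.137 in dTg, 0.116, 0.11 and 0.111 in 5xFAD, 0.145, 0.141 and 0.137 in N40K, and 0.108, 0.11 and 0.114 in WT mice. Carriers of N40K lay above all other mice, at 1.22-fold and 1.27-fold, and the interval of the interaction was narrow (−0.05, −0.19 to 0.08); it was chosen after its values were seen. Srsf11 (1.34-fold and 1.28-fold) and Srsf1 (1.18-fold and 1.33-fold), also chosen so, are SR proteins with called N40K effects. Of the genes with the smallest interaction p of each list, Sf3b4, of the SF3b complex, had 0.0601, Ccdc84 0.099, the kinase Clk4 0.121, Hnrnpa1 0.0785 and Srrm3, which promotes neuronal microexons, 0.233.

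Neuronal lists held few genes above the minimum score. Of 10 voltage-gated ion channel genes 2 were called for N40K (10.2% of all genes were), neither with an interaction interval within 0.5, and the list medians were 0.201 with amyloid transgenes and 0.229 without. Kcna1, an axonal potassium channel chosen after its values were seen, was 1.86-fold and 1.62-fold higher, with an interaction of 0.21 (−0.35 to 0.76). Of 8 vesicle release genes 1 had an unadjusted p under 0.05: Sv2a, a vesicle glycoprotein, had 0.036 to 0.037 in dTg, 0.038 to 0.04 in 5xFAD, 0.037 to 0.039 in N40K and 0.037 in every WT library (interaction −0.13, limma unadjusted p = 0.0287). These values lie within 4 steps of the last decimal.

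Among 11 glutamatergic genes the median 5xFAD effect was 0.12 with N40K and −0.0117 without, and among 5 GABAergic genes it was 0.0427 and −0.0344, with no interaction at an unadjusted p under 0.05 in either list (limma). The postsynaptic scaffold Shank1 (interaction 0.38, limma unadjusted p = 0.199) and the interneuron transcription factor Lhx6 (0.13, limma unadjusted p = 0.237) had the smallest interaction p of these lists. The median interactions were 0.0979 and 0.13, beside −0.00256 over all genes.

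**Figure D5:**
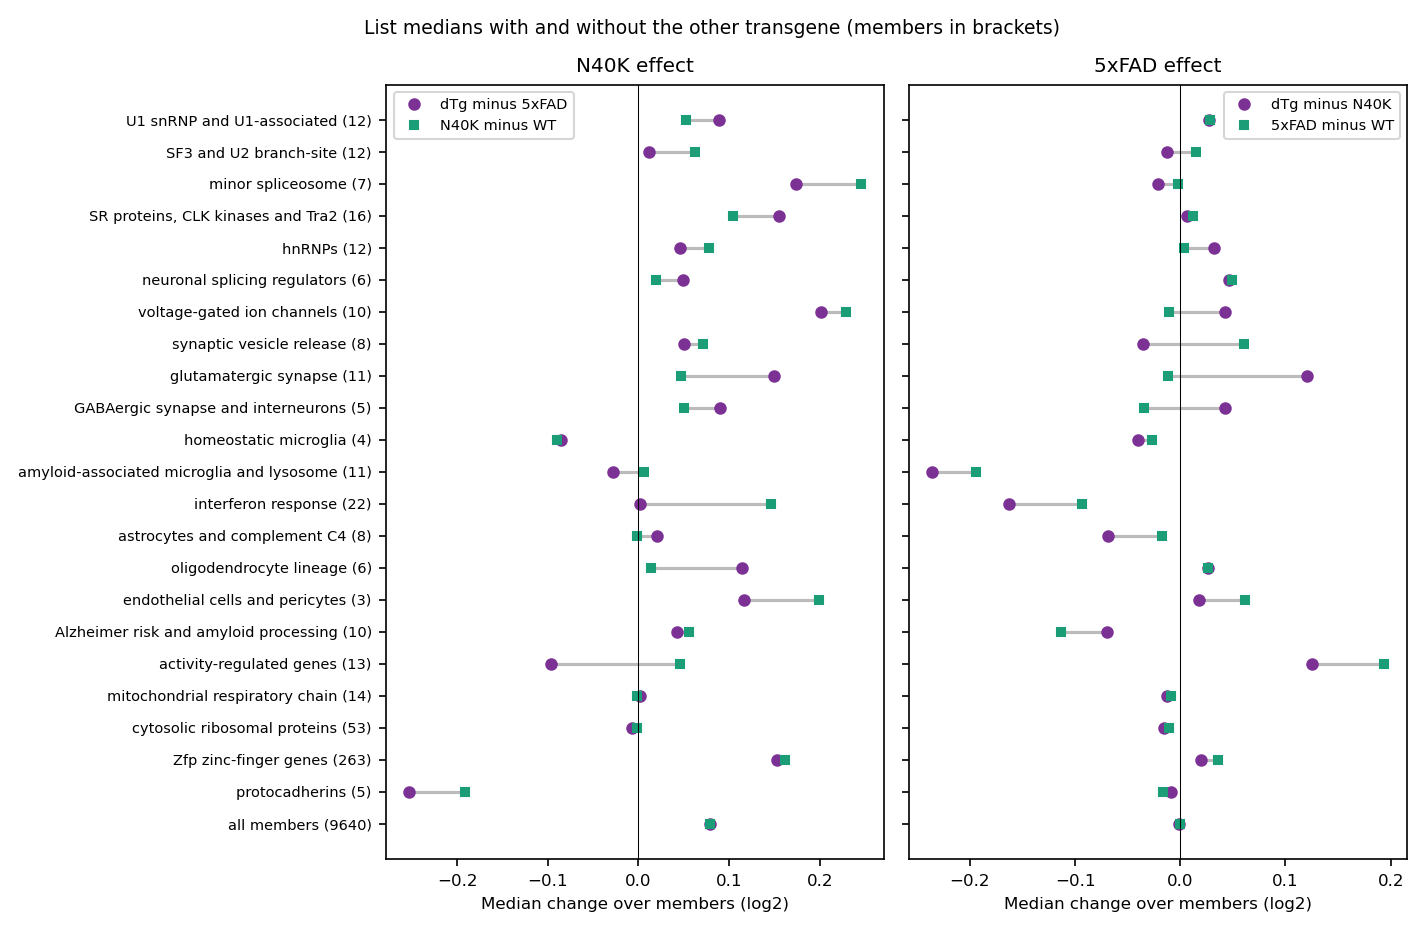
Median log2 change over the members of 22 gene lists and over all 9640 genes, with the N40K effect on the left (circles dTg minus 5xFAD, squares N40K minus WT) and the 5xFAD effect on the right (circles dTg minus N40K, squares 5xFAD minus WT); members are in brackets. The 11 amyloid-associated microglial and lysosomal genes lie lowest in the right panel on both backgrounds, and the medians over all genes coincide at 0.08 on the left and 0 on the right.

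Cd68 and Usp18, the genes called for the averaged 5xFAD effect, belong to lists of glial and immune genes. Of 11 amyloid-associated microglial and lysosomal genes, 10 had lower scores with amyloid transgenes on both backgrounds, where 2637 of all 9640 genes did. The list medians were −0.236 with N40K and −0.194 without, and the median interaction was −0.0029. Cd68 passed, and 6 of the 11 were lower at an unadjusted p under 0.05 for the averaged effect, beside 3.21% of all genes. Grn, the lysosomal regulator progranulin, had 0.113, 0.112 and 0.117 in dTg, 0.12, 0.112 and 0.117 in 5xFAD, 0.127, 0.137 and 0.129 in N40K, and 0.133, 0.13 and 0.137 in WT mice. It was lower in all 6 mice with amyloid transgenes, at 0.872-fold with N40K and 0.874-fold without (interaction −0.0029, −0.15 to 0.14; averaged effect adjusted p = 0.117).

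Cd180, a relative of the Toll-like receptors, had 0.212, 0.238 and 0.202 in dTg, 0.351, 0.174 and 0.236 in 5xFAD, 0.504, 0.459 and 0.551 in N40K, and 0.476, 0.542 and 0.475 in WT mice. The groups with and without amyloid transgenes did not overlap, at 0.433-fold and 0.492-fold (limma adjusted p of the averaged effect 0.0551). Trem2, the lipid-sensing receptor of microglia, was at 0.849-fold and 0.834-fold with overlapping libraries, and Apoe, a lipid carrier, at 0.978-fold and 0.975-fold. These 4 genes, Grn, Cd180, Trem2 and Apoe, were chosen after their values were seen. The 4 homeostatic microglial genes had median 5xFAD effects of −0.0401 with N40K and −0.027 without, and Sall1, a transcription factor of microglia, had an interaction of 0.12 whose sign turned without N40K replicate 2 (−0.0352) and without 5xFAD replicate 2 (−0.00189).

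Of 22 interferon-response genes 10 were lower with amyloid transgenes on both backgrounds and 5 higher, where 2637 and 2618 of all 9640 genes were. The list medians were −0.163 with N40K and −0.0936 without. Usp18 passed, and 6 were lower at an unadjusted p under 0.05 for the averaged effect, beside 3.21% of all genes. None had an unadjusted interaction p under 0.05 (limma). Irf7, the interferon regulatory factor, had 0.431 to 0.517 in dTg, 0.567 to 0.68 in 5xFAD, 0.585 to 0.685 in N40K and 0.529 to 0.764 in WT mice (interaction −0.39, limma unadjusted p = 0.0853). Its dTg libraries were the 3 lowest. The 8 astrocyte and complement genes had median 5xFAD effects of −0.0684 with N40K and −0.017 without; Sox9 alone reached an unadjusted interaction p under 0.05, as Olig2 did among 6 oligodendrocyte genes. Slco1a4, an organic anion transporter of brain endothelium, had the smallest interaction p of 3 endothelial and pericyte genes (interaction −0.08, limma unadjusted p = 0.34).

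Of 10 Alzheimer risk and amyloid processing genes 7 were lower with amyloid transgenes on both backgrounds, where 2637 of all 9640 genes were, with medians of −0.0701 with N40K and −0.113 without; Aph1a, a gamma-secretase subunit, had the smallest interaction p (0.0703, interaction 0.28). Grn, Trem2 and Apoe belong to this list and to the amyloid-associated one, so the counts overlap. The 13 activity-regulated genes went the other way, with medians of 0.125 with N40K and 0.194 without. Of these, 8 were higher on both backgrounds, where 2618 of all 9640 genes were. For the averaged effect 1 of the 13 was higher at a limma unadjusted p under 0.05, beside 3.01% of all genes, and 0 passed. The clock gene Per1 had the smallest interaction p of this list (interaction −0.24, limma unadjusted p = 0.0654). None of the 13 had an unadjusted interaction p under 0.05 (limma).

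Lists of housekeeping genes had medians close to 0. The 53 ribosomal protein genes had median N40K effects of −0.00702 with amyloid transgenes and −0.002 without, and interactions from −0.268 to 0.226; the 14 respiratory chain genes had 0.00194 and −0.00208, and interactions from −0.167 to 0.259. Ndufv1, a subunit of complex I named because it alone of these was called, rose with N40K (averaged effect 0.35, limma adjusted p = 0.0369), with an interaction interval of −0.21 to 0.58. That call was lost in 9 of the 12 fits without 1 library, all but those without N40K replicate 2, 5xFAD replicate 2 or dTg replicate 1 (limma adjusted p between 0.0273 and 0.0868), and with median-centred libraries (limma adjusted p = 0.076) or the replicate block (limma adjusted p = 0.0838). Rpl28 (limma unadjusted p = 0.218) and the cytochrome oxidase subunit Cox7c (limma unadjusted p = 0.067) had the smallest interaction p. Of 263 zinc-finger genes with Zfp symbols, 32 rose and 5 fell with N40K (9.07% and 1.16% of all 9640 genes), with medians of 0.153 with amyloid transgenes and 0.162 without, and 6 had a positive and 3 a negative interaction at an unadjusted p under 0.05, where 3.32% of all genes had either. Zfp715 had 0.035 to 0.038 in dTg, 0.03 to 0.032 in 5xFAD, 0.032 to 0.037 in N40K and 0.034 to 0.035 in WT mice (interaction 0.26, limma unadjusted p = 0.0104). Its 5xFAD libraries were lowest, the highest of them equal to the lowest N40K library. Of 5 protocadherins, Pcdha3, which shares its last exons with the other genes of its cluster and is therefore uncertain, had 1.235, 0.875 and 0.927 in dTg, 0.297, 0.392 and 0.598 in 5xFAD, 0.812, 0.543 and 0.948 in N40K, and 0.624, 0.824 and 1.357 in WT mice. The dTg and 5xFAD libraries did not overlap, while N40K and WT did (interaction 1.52, limma unadjusted p = 0.012).

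Intron length, which the choice of genes did not use, went with the N40K effect on both backgrounds and not with the interaction. Summed intron length was found for 8879 of the 9640 genes (92.1%) by Ensembl identifier. Its Spearman correlation across genes was 0.216 with dTg minus 5xFAD, 0.227 with N40K minus WT and −0.013 with the interaction, and 0.0272 and 0.0341 with the 5xFAD effect with and without N40K. These are descriptions across genes that share the same libraries. In the third of genes with the longest introns (median 36.3 kb) the median N40K effect was 0.13 with amyloid transgenes and 0.143 without, and 15.9% of 2960 genes were called for the averaged effect. In the third with the shortest (median 2.83 kb) the medians were 0.0183 and 0.0227, and 5.95% of 2960 were called. The shares at an unadjusted interaction p under 0.05 were 3.48% and 3.34%.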

How the data were processed

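Sd scores of 12 cortex libraries at 6 months were analysed; the 12-month table was not used here. The authors deposited a linear ratio per gene and library, rounded to 3 decimals. Per the submitters' processing notes, CASAVA, STAR, BWA and bedtools 2.16.1 were used with the mm9 build. How the score was computed, on which annotation and from how many reads is not given in the sources used here; no interval based on depth is printed.

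Scores were put on log2(score + 0.002), without recentring, and fitted in R 4.3.3 with limma 3.58.1 (default lmFit, contrasts.fit and eBayes), with 1 term per genotype over all 15705 genes (8 residual and 1.2 prior degrees of freedom). Tests were two-sided, and calls required a Benjamini-Hochberg adjusted p under 0.05 over the whole table. Intervals are limma's 95% intervals. Medians of libraries were compared by an exact permutation test. Intron lengths came from GENCODE M21 by Ensembl identifier; as its build is not mm9, no coordinates or sequences are printed. The fit was tested on simulated data.

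The genes and lists were chosen with earlier results of these data known. Named genes were the 8 largest positive and 8 largest negative interactions at an unadjusted p under 0.01, the largest gap per lone group and direction, the 3 largest rises and 3 largest falls among additive called genes, and the smallest interaction p of each list. Predicted genes were not named, and some genes that the rule selects are not reported here. Alternatives covered centring, eBayes options, array weights, pseudocounts, linear scores, the minimum score, the replicate block and omitted libraries.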

Additional observations from a re-analysis of the deposited data

How the results depend on the processing

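No gene was called for the interaction under any alternative except with no minimum score, where the 3 genes at the last decimal passed. The count at an unadjusted p under 0.05 (320) was 597 with array weights and 491 without both libraries of highest median, and 288 to 470 with 1 library left out. The median interaction was 0.0412 after centring, 0.028 with array weights and −0.0333 to 0.0391 with 1 library left out. The library-median interaction (−0.0205) reversed to 0.0232 after centring, and ranged from −0.0684 to 0.0383 with 1 library left out. The r of the N40K effects was 0.379 with array weights, 0.904 on linear scores, 0.302 without both, and 0.38 to 0.494 with 1 left out. For the 5xFAD effects it was 0.094, 0.608, 0.105, and 0.0977 to 0.157. On linear scores 499 genes were called for N40K, against 986. There the genes of highest score carry most of the correlation's weight.

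Additive genes called for N40K (454) numbered 232 at a mean score of at least 0.05, 945 with no minimum, 231 without both and 181 to 544 with 1 left out. The 1 additive gene called for 5xFAD became 4 after centring, 4 with array weights, 2 with a pseudocount of 0.005, 0 with 0.02, 0 with the fit over the 9640 genes alone, 3 with no minimum, 2 without both and 0 to 3 with 1 left out. Genes called for 5xFAD (2) numbered 7 after centring and 9 with array weights. Genes with a lone group (29) numbered 17 at a mean score of at least 0.05, 87 without both and 41 to 68 with 1 left out. The interaction of Sall1 ranged from −0.0352 to 0.203 over the alternatives other than linear scores, and was also reversed at −0.00189. Apart from fewer or more genes and libraries by construction, the cause was not tested.

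Same-numbered libraries did not deviate together (r of −0.191 to 0.0833 over 18 pairs, 0 over 0.1). Among 36 pairs of other numbers, 4 were over 0.1. With 3 libraries per group these values cannot exclude a pairing, so the replicate number was used only as an alternative. With the replicate number as a block, 0 genes had a called interaction, 471 were called for N40K, and additive genes numbered 210 for N40K and 0 for 5xFAD. The 0.5 margin and the lone-group rule are log2 quantities and were not run on linear scores. The unknown depth, 3 libraries per group and the rounding to 3 decimals limit what could be detected.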
